A study of Arabidopsis thaliana with 2 samples.

Results

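The 10 flowering-time MADS-box genes described here are FLC (AT5G10140), MAF1 (AT1G77080), MAF2 (AT5G65050, also AGL31), MAF3 (AT5G65060), MAF4 (AT5G65070), MAF5 (AT5G65080), SOC1 (AT2G45660, also AGL20), SVP (AT2G22540), AGL24 (AT4G24540) and FUL (AT5G60910, also AGL8). They were chosen by locus identifier, and from the densities of this same list, in which FLC and SOC1 were already known to be low. Their gene-body densities are therefore a description, without a test. They are 10 of 27444 protein-coding genes on the 5 nuclear chromosomes. Of the 397452 nucleosomes listed, 72 were centred in these genes and 101 in the genes with 1 kb on either side.

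The list comes from seedlings of Arabidopsis thaliana, grown for 2 to 3 weeks under long days. Micrococcal nuclease (MNase) cuts DNA that nucleosomes do not protect, and the protected DNA was sequenced. There were 2 libraries, 1 from nrpe1 and 1 from Col-0 wild type. NRPE1 is the largest subunit of RNA polymerase V, a plant polymerase that acts in RNA-directed DNA methylation. The labels give neither the nrpe1 allele nor the number of plants in a library. The deposited list is named for nucleosomes of Col-0 or nrpe1 and gives no genotype beside any nucleosome. Whether it joins calls made in each library or holds calls made on both together is not stated. Hence nrpe1 was not compared with Col-0, and all values below belong to this single list. There were no replicates, and the depth behind the list is unknown. An unlisted stretch is a part of the genome where the authors' list holds no interval, and what lay there in either genotype was not tested. Positions are those of the list, on TAIR10. Since the gene table used gives no strand, the ends of a gene are called lower and higher by coordinate.

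MADS-box genes encode transcription factors that bind DNA as dimers and larger complexes, and those of the MIKC type control much of plant development. FLC and its relatives MAF1 to MAF5 act mainly as repressors of flowering, and cold silences FLC through Polycomb proteins, the process known as vernalization. SVP, a repressor, works together with FLC and the MAF proteins to hold back SOC1, which integrates cold, day length and hormone signals and promotes flowering. AGL24 promotes flowering together with SOC1, and FUL promotes flowering and later shapes the fruit.

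All 10 genes held fewer listed nucleosomes per kb than the median protein-coding gene. Their median was 1.52 nucleosome centres per kb of gene, against 4.03 per kb over all protein-coding genes, a ratio of 0.376. The intervals covered a median of 21.3% of the 10 genes, against 51.2% of protein-coding genes. In 7 of the 10 the density lay below 0.5 of the median gene, a limit of 2.02 per kb, and 7.97% of all protein-coding genes lay below it as well. Just inside this limit stood FLC at 1.81 per kb, and just outside it MAF5 at 2.35 per kb. The members were chosen with such values in view, so nothing is read from this count.

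In order of density, SOC1 was lowest at 0.276 per kb. MAF3 at 1.22, FUL at 1.30, MAF2 at 1.43, MAF1 at 1.47, AGL24 at 1.56 and FLC at 1.81 per kb followed. The upper end was formed by MAF5 and SVP, both at 2.35 per kb, and MAF4 at 2.49 per kb. Of the 3 promoters of flowering, SOC1 and FUL stood below the members' median of 1.52 per kb and AGL24 just above it. The repressors MAF1, MAF2 and MAF3 stood below AGL24, and FLC, MAF5, SVP and MAF4 above it. The order thus did not part promoters from repressors. These numbers rest on 1 to 12 nucleosomes per gene, and exact Poisson 95% intervals, which cover counting error only, were wide. The interval of SOC1 reached from 0.00699 to 1.54 per kb and that of MAF4 from 1.20 to 4.59 per kb. In 0 of the 45 pairs of members did the intervals fail to overlap. Overlap of intervals does not decide whether 2 genes differ, and no pair was tested, so nothing is read from the order.

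**Figure D1:**
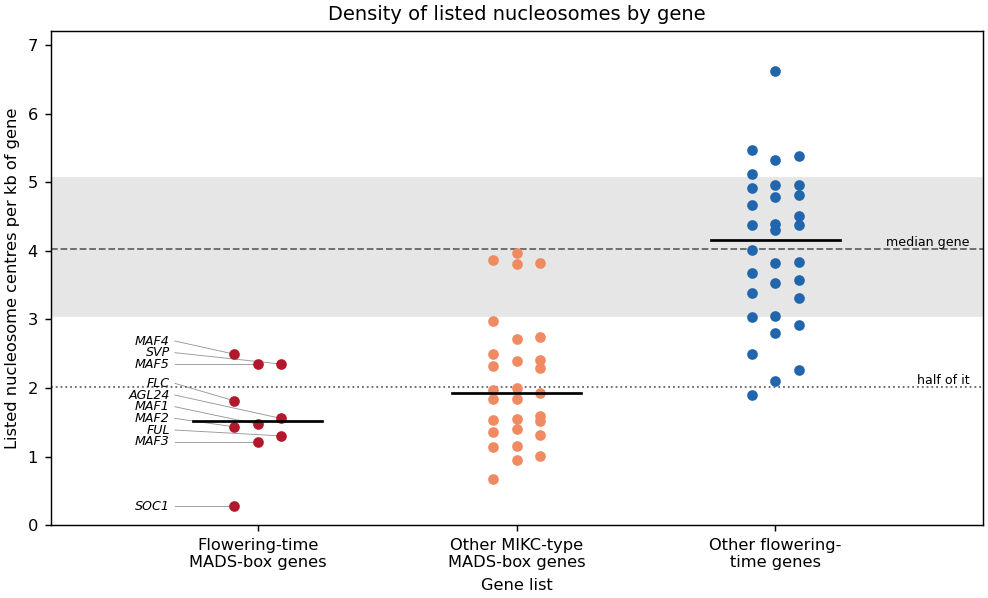
Listed nucleosome centres per kb of gene (y axis) for the 10 flowering-time MADS-box genes, the 29 other MIKC-type MADS-box genes and the 32 other flowering-time genes; each point is 1 gene and each bar a median. The grey band spans the quartiles of all protein-coding genes, 3.05 and 5.07 per kb, the dashed line their median of 4.03 and the dotted line 2.02; all 10 members lie below the band, SOC1 lowest at 0.276.

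FLC, the central repressor, held 11 listed nucleosomes in 6067 bp, 6 of them near its ends. At the lower end 3 were centred 1.0, 150 and 359.5 bp inside the gene, and at the higher end 3 were centred 332.5, 260.0 and 125.0 bp from the end. Between these groups lay 5 nucleosomes, 3 of them together and 2 alone. Going up from the lower end, the groups were parted by unlisted stretches of 1272, 1141, 516 and 1427 bp, the last of which ended 395 bp short of the higher end. As background, FLC is transcribed from its higher end toward lower coordinates, and antisense transcripts known as COOLAIR start near the other end. The gene table also lists a non-coding RNA gene, AT5G01675, across the whole of FLC, and 12 nucleosomes were centred in it. Nucleosome positions carry no strand, so the overlapping genes cannot be told apart here.

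The scores, a unit of the authors' own between 0.5 and 0.99 over the whole list, ran from 0.590 to 0.895 within FLC, so that none reached 0.9. Its highest-scoring nucleosome lay on chromosome 5 at 3177479 to 3177626, inside the gene beside the longest unlisted stretch. A higher score, 0.929, belonged to a nucleosome just outside, at 3179656 to 3179789, 274.5 bp past the higher end. The flanks of FLC held 2 nucleosomes on each side within 1 kb. With these, the density stood at 1.86 per kb, close to the 1.81 per kb of the body alone. The next protein-coding gene, AT5G10130, ends 680 bp below FLC and held 6 nucleosomes at 4.18 per kb.

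MAF1, also called FLM, a repressor known for its part in the response to ambient temperature, held 7 nucleosomes in 4752 bp. It showed the longest unlisted stretch lying wholly inside any of the 10 genes, 2805 bp or 59.0% of its length. Before this stretch 3 overlapping nucleosomes were centred 178.5, 254.5 and 339.0 bp inside the lower end, with scores of 0.798, 0.789 and 0.828. After it the remaining 4 were centred 1457, 889.5, 447 and 255.5 bp from the higher end. The last of them, at 28959916 to 28960041 on chromosome 1, had the highest score of the gene, 0.939. A neighbour, AT1G77090, begins 77 bp past the higher end and held 6 nucleosomes at 3.61 per kb.

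**Figure D2:**
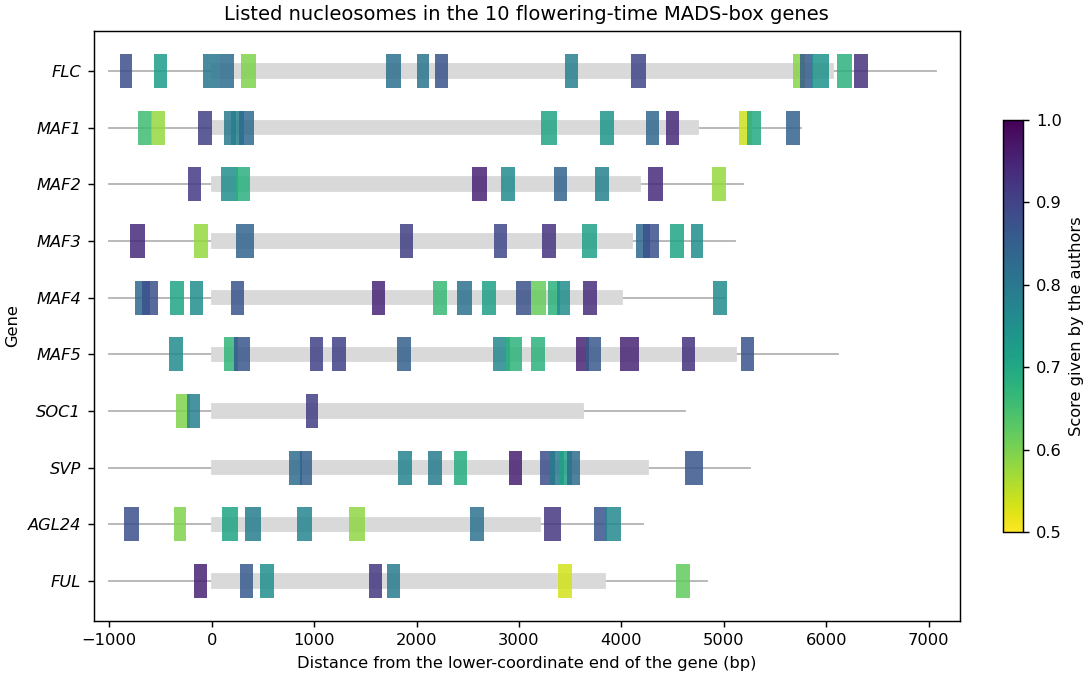
Listed nucleosomes (coloured boxes, drawn to length) along the 10 genes (grey bars) with 1 kb on either side, by distance in bp from the lower-coordinate end of each gene; the colour gives the authors' score, from 0.5 to 1. Nucleosomes are centred within 350 bp of the lower end in FLC, MAF1 to MAF5, AGL24 and FUL, and of the higher end in FLC, MAF1 and MAF4. Unlisted stretches inside the gene reach 2805 bp in MAF1, and 1 nucleosome marks the whole of SOC1.

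MAF2 to MAF5 lie side by side on chromosome 5 and were also taken as one stretch, from the lower end of MAF2 to the higher end of MAF5. Its 20366 bp held 40 listed nucleosomes, 1.96 per kb (exact Poisson 95% interval 1.40 to 2.67), against 3.29 per kb on the whole of chromosome 5. The intervals covered 26.3% of the stretch, against a median of 39.7% in 1324 consecutive windows of the same length along the chromosome. Of these windows 91 held fewer centres. By count the cluster stood at the 7.44 percentile of these windows. Its 4 genes, which held 33 of the 40 nucleosomes, were chosen with values of this list in view. Nothing is therefore read from this percentile. It held 4 unlisted stretches of 1 kb or longer, 1 each in MAF2, MAF3 and MAF4, and 1 from the higher end of MAF4 into the space before MAF5.

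Along the cluster the genes themselves held 33 of the 40 nucleosomes, and the 3 spaces between them held 7. The spaces were uneven. Between MAF2 and MAF3, 873 bp held 2 nucleosomes, between MAF3 and MAF4, 780 bp held 4, and between MAF4 and MAF5, 1301 bp held 1. Summed, the spaces reached 2.37 per kb, against 1.90 per kb within the 4 genes. Across the genome the 6757 spaces of 500 to 1500 bp between protein-coding genes held 1.22 per kb. The value for the 3 spaces rests on 7 nucleosomes, 4 of them in 1 space, and its distance from either value was not tested. The space between MAF3 and MAF4 was covered to 61.3% and that between MAF2 and MAF3 to 32.4%, and the widest space, between MAF4 and MAF5, was covered least.

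MAF2, a repressor that guards against flowering after short cold spells, held 6 nucleosomes in 4182 bp. Of these, 2 overlapping ones were centred 176.5 and 304.0 bp inside the lower end. An unlisted stretch of 2169 bp followed, 51.9% of the gene, and the other 4 nucleosomes lay beyond it. The one that ends this stretch, at 25984796 to 25984941, had the highest score in the cluster, 0.952.

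MAF3, another repressor, held 5 nucleosomes in 4104 bp, none overlapping another. A single nucleosome was centred 324.5 bp inside the lower end, before an unlisted stretch of 1431 bp. Its last 3 nucleosomes and the next one beyond the gene were separated by 469.5, 397.5 and 522.5 bp from centre to centre. In MAF2 the last 3 and the next one beyond the gene were separated by 511.0, 401.0 and 526.5 bp. The spacing at the higher ends of these neighbours was thus alike in the last pair of steps and less so in the step before, a likeness picked out after the positions had been seen. Whether reads can be assigned to one copy or the other was not tested, as no sequence was used.

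MAF4, a repressor, held 10 nucleosomes in 4010 bp. MAF5, which unlike FLC is known to be raised by cold, held 12 in 5116 bp, and these were the highest counts of the cluster. In MAF4 a single nucleosome was centred 253.0 bp inside the lower end, an unlisted stretch of 1248 bp followed, and 5 nucleosomes lay in the last 1 kb. MAF5 differed from its neighbours, since its nucleosomes ran along the whole gene and its longest unlisted stretch measured 798 bp. It began like MAF2, with overlapping nucleosomes centred 190.5 and 292.0 bp inside the lower end. Scores of 0.9 or more were reached by 5 of its 12 nucleosomes, the highest of them at 26001062 to 26001185, against 2 of 10 in MAF4, 2 of 5 in MAF3 and 1 of 6 in MAF2.

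**Figure D3:**
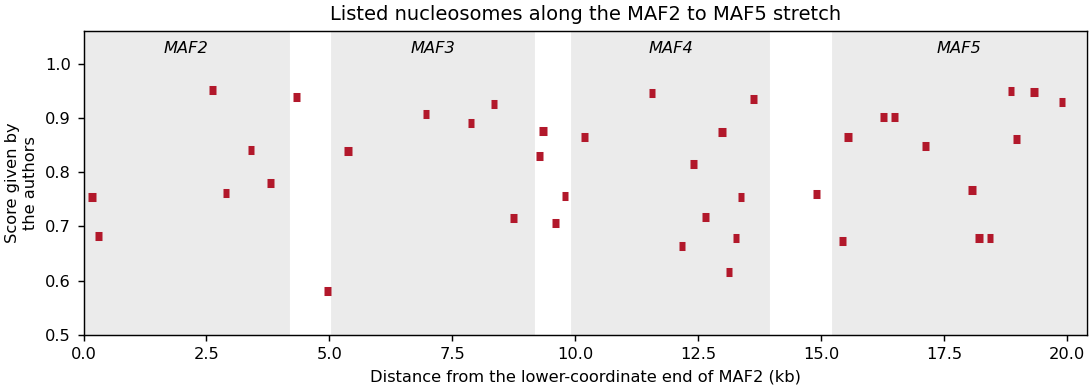
The 40 nucleosomes listed along the MAF2 to MAF5 stretch, by distance in kb from the lower end of MAF2 (x axis) and by the authors' score (y axis); bars are drawn to the length of the interval and grey bands are the genes. Unlisted stretches of 2169 bp in MAF2, 1431 bp in MAF3 and 1248 bp in MAF4 appear near the lower end of each gene, and MAF5 has none of 1 kb.

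A nucleosome close to the lower end was found in 8 of the 10 genes. In MAF1 to MAF5 a total of 9 were centred in the first 350 bp, between 176.5 and 339.0 bp inside the gene, and FLC, AGL24 and FUL also had at least 1 there. Of all protein-coding genes of 3 to 6.5 kb, 72.7% had one as well, so this count is close to that of other genes. In the last 350 bp at the higher end a centre was found in 3 of the 10, FLC, MAF1 and MAF4, where 67.3% of those genes had one. The limit of 350 bp was set after the positions had been seen, and low density, by which the genes were chosen, lowers such counts at either end. FLC, MAF1 and MAF4 thus held nucleosomes at both ends. From the lower end inward, the first unlisted stretch after the nucleosomes there measured 1272 bp in FLC, 2805 bp in MAF1 and 2169 bp in MAF2. It measured 1431 bp in MAF3, 1248 bp in MAF4 and 588 bp in MAF5. Exons, introns and strand were not used here, so these stretches need not lie at the same end of transcription. FLC, as given above, is transcribed from its higher end.

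SOC1, the integrator on which these repressors act, held a single listed nucleosome in 3621 bp. It was centred 980.5 bp inside the lower end, at 18808423 to 18808548 on chromosome 2, with a score of 0.909. From it to the next listed nucleosome, at 18813442 to 18813569, an unlisted stretch of 4894 bp covered the rest of the gene, 2577 bp or 71.2% of its length, and 2317 bp beyond. Of the 224647 unlisted stretches between neighbouring intervals of the list, 164 were at least that long. SOC1 was chosen with its low density known, and long unlisted stretches go with low density, so nothing is read from this rank. On the other side, 1031 bp were unlisted between the single nucleosome and a pair of overlapping ones centred 177.0 and 282.0 bp below the gene. SOC1 with 1 kb on either side held 3 nucleosomes, or 0.534 per kb, the lowest of the 10 genes in this window too.

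That pair lies in the space of 918 bp between SOC1 and AGL6, another MADS-box gene, which held 6 nucleosomes at 2.50 per kb. The sparse region thus begins just below SOC1 and reaches past its higher end, where the next gene of the table, AT2G09655, starts 3106 bp away.

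SVP, the partner of FLC in repression, held 10 nucleosomes in 4255 bp and none within 500 bp of either end. The first was centred 818.0 bp inside the lower end and the last 722.0 bp from the higher end. Unlisted stretches of 1713 bp across the lower end and of 1030 bp across the higher end framed the gene. The 1 kb below SVP held 0 nucleosomes and the 1 kb above it held 1. Inside, the last 4 nucleosomes overlapped in a chain with centres 90 bp, 80.5 bp and 80.5 bp apart, less than the length of any listed interval. The highest score among all 72 nucleosomes, 0.956, belonged to SVP, at 9582554 to 9582679 on chromosome 2.

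AGL24, a promoter of flowering and the closest relative of SVP, held 5 nucleosomes in 3210 bp, none overlapping. They were centred 183.0, 404.0, 906.0, 1420 and 2592 bp inside the lower end, so that 3 lay in the first 1 kb and 1 in the last 1 kb. Its longest unlisted stretch, 1024 bp, lay between the last of these and the one before. The scores, 0.585 to 0.810, were low, with 1 of 5 at or above the median of the whole list, 0.790. Just beyond the higher end, 119.0 bp away, a nucleosome scored 0.921. These relatives thus differed in layout, with nucleosomes near the lower end in AGL24 and none within 500 bp of either end in SVP.

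FUL, which promotes flowering and fruit growth, held 5 nucleosomes in 3836 bp, in 2 pairs and 1 alone. The pairs had centres 200 and 178.5 bp apart. The single one, 389.5 bp from the higher end, had the lowest score among the 72, 0.533. An unlisted stretch of 1535 bp lay before it, 40.0% of the gene, and another of 1021 bp after it, across the higher end. Just below the gene a nucleosome at 24502258 to 24502385 on chromosome 5 scored 0.952. The next gene below, RLK1 (AT5G60900), held 13 nucleosomes at 3.82 per kb.

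Long unlisted stretches were common in the 10 genes. The longest one inside each gene had a median of 1429 bp, against 598 bp in the 6367 protein-coding genes of 3 to 6.5 kb, the range that holds all 10. In 8 of 10 it reached 1 kb, and 17.1% of those genes also reached it. AGL24, at 1024 bp, stood just inside this limit and SVP, at 842 bp, just outside. The limit was set after the values had been seen, and long unlisted stretches go with low density, by which the genes were chosen. At a limit of 1500 bp the count fell to 4 of 10, SOC1, MAF1, MAF2 and FUL, where 4.32% of the genes of that length passed.

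**Figure D4:**
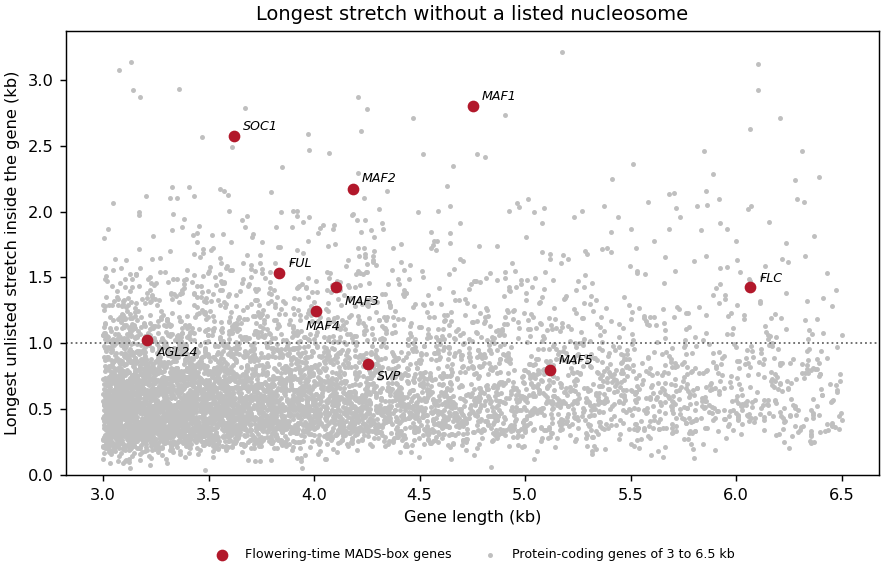
Longest unlisted stretch inside the gene, in kb, against gene length, in kb, for the 10 flowering-time MADS-box genes (red) and all 6367 protein-coding genes of 3 to 6.5 kb (grey, members included); the dotted line marks 1 kb. MAF1 at 2805 bp and SOC1 at 2577 bp stand highest among the red points, and SVP at 842 bp and MAF5 at 798 bp lie below the line.

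Within 1 kb of the genes there were 18 nucleosomes below and 18 above, 1.80 per kb, against 2.43 per kb beside all protein-coding genes. Between neighbouring MAF genes, 7 nucleosomes lie within 1 kb of both and were counted for each. The density in the 10 bodies was 0.927 of that in their flanks (95% interval 0.613 to 1.42, counting error only), against 1.66 over all protein-coding genes. The interval of this ratio treats the 7 repeated counts as independent and is therefore too narrow. The genes were chosen with their low body densities known, which lowers this ratio, so nothing is read from its distance to that of all genes.

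Within the gene, the outermost 1 kb at either end held 2.00 per kb at the lower and 2.20 per kb at the higher end, and the part between them held 1.30 per kb. The ratio of ends to middle was 1.62 (95% interval 0.991 to 2.68), against 0.916 in all protein-coding genes of 3 to 6.5 kb. The interval includes 1, so that the excess at the ends is within the counting error. Its lower limit lies above the value of other genes, but it counts overlapping nucleosomes as independent, so nothing is read from this distance. The ratio was 1.28 without overlaps, 1.40 with scores at or above the list median, and 1.76 with 500 bp at each end. The lower and higher ends differed by a ratio of 0.909 (0.471 to 1.75). The ratio of ends to middle was added after the nucleosome positions had been seen.

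The nucleosomes of the 10 genes stood farther apart than those of other genes. From centre to next centre inside a gene the median step was 303 bp over 62 steps, against 155 bp over all protein-coding genes. Steps of 1 kb or longer made up 16.1% of the total in the members, 10 steps in all, against 0.915% in protein-coding genes. Steps of 150 to 240 bp, the range of neighbouring nucleosomes, made up 17.7%, against 27.5%. Overlaps were rarer as well, since 26 of the 72 nucleosomes, or 36.1%, overlapped a listed neighbour (exact binomial 95% interval 25.1 to 48.3%), against 62.4% in protein-coding genes. Steps are longer and overlaps rarer where density is low, so neither measure is independent of the choice of genes. Whether overlapping intervals were called in the same library is not stated.

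The nucleosomes that were listed in these genes scored no lower than others. Of the 72, 42 or 58.3% scored at or above the median of the whole list (exact binomial 95% interval 46.1 to 69.8%), against 49.5% in protein-coding genes. Scores of 0.9 or more were reached by 14, or 19.4% (11.1 to 30.5%), against 12.4%. The median length of their intervals was 136 bp, against 137 bp. The intervals around both shares include the values of protein-coding genes, and nucleosomes of 1 gene are not independent.

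The 10 genes are part of 39 MIKC-type MADS-box genes in the lists used, and the other 29 were sparse as well. This list, like the next, was put together with results of these data known. These others had a median of 1.93 per kb, 0.479 of the median gene, with 17 of 29 below 0.5 of it, where 7.97% of all protein-coding genes lie, and 29 of 29 below the median. Among them, 10 root and SOC1-like genes had a median of 1.34 per kb, with 9 of 10 below 0.5 of the median gene. The 12 floral organ genes had a median of 1.95 per kb, with 7 of 12 below. The remaining 7 had a median of 2.71 per kb, with 1 of 7 below. The lowest of the 29 were AGL14, a root gene close to SOC1 in sequence, with 3 nucleosomes at 0.671 per kb, and AGL19, another relative of SOC1, with 4 at 0.957 per kb. The highest were TT16, a seed coat gene, with 10 at 3.86 per kb, and AGL13 with 9 at 3.96 per kb. Of the 14 of these genes between 3 and 6.5 kb, 12 held an unlisted stretch of 1 kb or longer. Of all protein-coding genes of that length, 17.1% held one. Low density and long unlisted stretches were thus also found in MADS-box genes of flowers and roots.

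Other genes of the flowering pathway, which encode no MADS-box protein, lay close to the typical gene. The 32 listed had a median of 4.16 per kb, 1.03 of the median gene, with 16 of 32 below it and 1 below 0.5 of it. That gene was FT, whose product is the mobile flowering signal, with 5 nucleosomes in 2627 bp at 1.90 per kb. Next came VRN2, a Polycomb protein needed to keep FLC silent, with 8 at 2.10 per kb. FLD, a repressor of FLC related to histone demethylases, stood highest with 23 nucleosomes at 6.62 per kb, and GI, a clock gene that acts before FT, followed with 33 at 5.46 per kb. Activators of FLC, 7 genes, had a median of 4.51 per kb, and repressors of FLC, 13 genes, a median of 4.30 per kb. In both, 0 genes lay below 0.5 of the median gene. Below this limit lie 7.97% of all protein-coding genes, so few were to be found in lists this small. Nothing is read from these counts, nor from the 1 of 32. Integrators and other regulators of flowering, 12 genes, had a median of 3.71 per kb. An unlisted stretch of 1 kb or longer was found in 3 of the 14 genes of this list between 3 and 6.5 kb. This count is close to the share of all protein-coding genes of that length, 17.1%.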

How the data were processed

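The values come from a list of nucleosomes deposited by the authors, with chromosome, start, end and a score per nucleosome, per the file headers. Bowtie and TAIR10 are named in the submitters' processing notes. Which caller was used, what the score measures and how both libraries became a single list is not stated in the labels or headers. Per the labels, digested DNA was size-selected on a 2% agarose gel. Listed intervals ran from 120 to 180 bp. No column belongs to a single library, so no test between genotypes was made, and no p-value is given.

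Genes came from the RefSeq table of TAIR10.1, in which all 71 genes of the lists were found by locus identifier. Gene ends of that table were used for counting and no gene coordinates are printed. To check the table against the list, centres within 500 bp of gene ends were profiled separately in 15 parts of the chromosomes, and each profile correlated with that of all genes, the lowest correlation being 0.854.

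A nucleosome belonged to a gene when its centre, midway between start and end, lay in it. Density is centres per kb of gene. An interval was taken to cover as many bases as end minus start. Genes with densities below 0.5 of the median protein-coding gene were counted as low. Intervals are 95% exact Poisson (densities) or exact binomial (shares and ratios of 2 counts) and cover counting error only. Python 3.11.15, numpy 2.4.6, pandas 2.3.3 and scipy 1.17.1 were used, and the counting steps were tested on simulated data.

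The members and the gene lists were chosen with earlier results of these data known. All 10 members are named, and of each other list the 2 lowest and 2 highest densities. Alternatives were a score at or above the median, a set without overlaps, assignment by any overlap, the share covered, flanks, gene length and the MAF cluster left out.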

Additional observations from a re-analysis of the deposited data

How the results depend on the processing

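All 10 genes stayed below the median protein-coding gene in each of the 60 alternative values for single genes. These ranged from 0.0674 to 0.837 of it, and none moved beyond its counting interval. The genes were chosen with low values of this list known, and the alternatives recount the same list. Staying below the median was thus largely set in advance, and the counting intervals are wide, so neither result is read as support. With 1 kb of flank on either side, the median of the 10 genes was 0.573 of that of all genes. In this window 3 of 10 lay below 0.5 of the median, SOC1, FUL and MAF2, and 7.55% of all protein-coding genes did as well. The other alternatives for the median ranged from 0.376 to 0.462. At a limit of 1500 bp, 4 members held a long unlisted stretch, as did 4.32% of protein-coding genes of 3 to 6.5 kb. Of 32 alternative values for the other results, the remaining 29 stayed within their interval or within 1.5 times the count. Within the interval, 2 of them crossed 1. The density in bodies over flanks was 1.15 when low scores were left out, and that of lower over higher ends was 1.5 in the outermost 500 bp. The alternatives on unlisted stretches and on ends against the middle were chosen after seeing the data. With 1 to 12 nucleosomes per gene, counting error limits every value, and the unknown depth of the libraries limits what an unlisted stretch can mean. No paired analysis was possible because each genotype has 1 library and the list gives no genotype.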
